A study of Mus musculus with 18 samples.

Results

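The comparison described here is that of Spi1 knockdown in cells treated with entinostat. Its members are 6 sequencing libraries, 3 with and 3 without doxycycline, out of 12 in the experiment that used entinostat and 18 in the whole series. The libraries were taken by their labels, and all 15051 genes that passed a filter on low counts, of 26903 listed, were tested. The cells are TgSpi1 mouse erythroleukemic cells from bone marrow, a single numbered line that overproduces SPI1, kept growing with erythropoietin (EPO) and carrying a hairpin RNA against Spi1 that doxycycline switches on. All 6 libraries come from cells given entinostat at 3 µM for 6 h. The group called Dox_Entinostat here also had doxycycline for 48 h, and the group called NoDox_Entinostat had none. The matching DMSO groups, Dox_DMSO and NoDox_DMSO, had the vehicle in place of entinostat and serve only for comparison, as does a separate experiment of 6 libraries with doxycycline or without it and no vehicle or inhibitor in its labels. The labels call the 3 libraries of a group biological replicates but name no separate cultures, so p-values measure the spread between these libraries. Cells with a control hairpin are not named there, so what doxycycline does by itself and what the loss of Spi1 RNA does cannot be told apart. All cells are of 1 line, and no library of cells without the transgene is part of the comparison.

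SPI1, also called PU.1, is an ETS-family transcription factor that binds purine-rich DNA around a GGAA core and drives the genes of macrophages, neutrophils, mast cells and B cells. In erythroid precursors its level normally drops, and kept high it blocks their maturation, in part by opposing GATA1, the main activator of globin and heme genes. Entinostat is a benzamide that inhibits class I histone deacetylases, chiefly HDAC1 and HDAC3, enzymes that remove acetyl groups from histones and often act in repressor complexes. The title of the series names HDAC1 and the Polycomb complex PRC2 in repression that depends on SPI1. The question of this comparison is which RNAs differ with doxycycline among cells that all had the inhibitor. Doxycycline was given for 48 h and entinostat for 6 h. Changes made before the inhibitor was present therefore cannot be told apart from changes made in its presence.

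The 6 libraries held 43.1 to 47.3 M counts, and levels are given as CPM, counts scaled to a common library total with TMM factors, in the order of the replicate numbers. A log2 fold change is Dox_Entinostat over NoDox_Entinostat, with its standard error, from the edgeR quasi-likelihood test, and a gene is said to have risen or fallen only at an adjusted p under 0.05. All 9 erythroid markers examined, among them Gata1, Klf1, Epor and Tfrc, had counts in every library, as the label of leukemic erythroid cells asks. The first NoDox_Entinostat library stood apart from the other 2 of its group. Relative to the mean of its group, its longest transcripts stood 0.91 lower on the log2 scale than its shortest, while the other 2 libraries stood 0.46 and 0.43 higher. In the Dox_Entinostat libraries the same measure was -0.00, 0.03 and -0.03. Ribosomal protein genes took 16.7% of counts in that first library, against 7.96% and 8.59% in the other 2, and 17.4%, 22.2% and 18.5% with doxycycline. Mitochondrially encoded RNAs took 1.64%, 1.02% and 0.929% without doxycycline and 1.76%, 1.68% and 1.43% with it. The part of these differences in the results below was not tested beyond the fits that leave a library out or remove a trend over length and GC content. That trend is called the length trend below, but no fit removed length without GC content.

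Spi1, the target of the hairpin (chr2:91082390-91115756, mm10, plus strand), was measured at 221, 480 and 482 CPM in NoDox_Entinostat and 98.5, 162 and 132 CPM in Dox_Entinostat. Every library with doxycycline was below every library without it, and the lowest of the untreated ones was the first. The log2 fold change was -1.59 ± 0.33 (adjusted p = 0.00722), and Spi1 was below 0.05 in all 23 alternative fits. It was -1.29 in DMSO and -1.73 in the separate experiment, and the difference between the arms was not called (-0.30, adjusted p = 0.708).

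Over all genes tested, 1348 rose (8.96%) and 2266 fell (15.1%), and 879 and 1142 of them changed by at least 2-fold. The libraries of the groups did not overlap in 5661 genes (37.6%), which include 1317 of the genes that rose and 2062 of those that fell. In DMSO 568 genes rose (3.77%) and 833 fell (5.53%), or 887 and 1146 where the fit held a block for replicate number. In the separate experiment, of 13811 genes tested, 727 rose (5.26%) and 1154 fell (8.36%). The counts move with single libraries. Without the first NoDox_Entinostat library 3152 of 15517 genes tested rose and 4431 fell. Without the first Dox_DMSO library, which enters through the shared estimate of spread, the counts were 2275 and 3436. Without the second or the third NoDox_Entinostat library they were 264 and 816, and 228 and 766. Without the second or the third Dox_Entinostat library they were 427 and 1094, and 305 and 802. Counts of a list with a library left out stand beside these totals, not beside 8.96% and 15.1%. Of the calls 37.3% were rises with TMM scaling and 26.0% with scaling by library size alone, where the median over all genes was -0.22 in place of -0.08.

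The genes that fell most included regulators of the leukocyte cytoskeleton and adaptors of immune receptors. Myo1g, an unconventional myosin of blood cells (chr11:6506548-6520965, minus strand), was measured at 15.1, 26.1 and 28.0 CPM in NoDox_Entinostat and 0.291, 0.887 and 0.396 CPM in Dox_Entinostat. It fell by 5.45 ± 0.41 on the log2 scale (adjusted p = 1.42e-05). Dock2, which activates the GTPase RAC in leukocytes (chr11:34226815-34783892, minus strand), went from 47.8, 121 and 133 CPM to 3.78, 4.14 and 4.67 CPM, a change of -4.58 ± 0.39. For both genes the first NoDox_Entinostat library was the lowest of its group and still far above every library with doxycycline. The other large falls with a mean of at least 5 CPM were those of the RNA-binding protein gene Celf2 (-5.41), the Rab-family gene Rab44 (-5.18), the tetraspanin gene Cd53 (-4.88), Tmem176b (-4.73), the inhibitory Fc receptor gene Fcgr2b (-4.54), Lcp2 (-4.26), the DNA-sensing adaptor gene Tmem173 (-4.06), Ccdc88b (-4.04), the phospholipase gene Plcb2 (-4.02) and the interferon-induced family member Ifit1bl1 (-3.83). These are the 12 largest falls among genes with a regular name, that mean and no overlap between the groups, which the choice required, and all 12 were called in all 23 alternative fits.

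Of 21 tested genes of immune receptor signalling, 19 fell, where 15.1% of all genes did, with a median log2 fold change of -1.58 against -0.08 over all genes. In DMSO 15 fell, where 5.53% of all genes did, with a median of -1.21. Lcp2, the adaptor SLP-76 that links receptor-activated kinases to phospholipase C (chr11:34046920-34092295, plus strand), was measured at 24.7, 44.0 and 49.0 CPM in NoDox_Entinostat and 2.13, 1.91 and 2.09 CPM in Dox_Entinostat. The groups were far apart, at -4.26 ± 0.27 (adjusted p = 1.42e-05). Plcb2 went from 15, 20.9 and 24.1 CPM to 0.649, 1.48 and 1.56 CPM, and Plcg2, the phospholipase of B cell and Fc receptor signalling, changed by -3.13 ± 0.61. Kinase genes changed by less: Lyn, a SRC-family kinase, stood at 47.1, 81.8 and 87.2 CPM and then at 26.6, 20.8 and 27.0 CPM (-1.54 ± 0.26), and Btk, the kinase lacking in X-linked agammaglobulinemia, at 103, 126 and 140 CPM and then at 73.6, 40.8 and 61.6 CPM (-1.07 ± 0.21). Negative regulators of the same pathway fell too, among them the adaptor genes Dok3 (-2.03) and Dok2 (-1.58), the phosphatase genes Ptpn6 (-1.13) and Inpp5d (-1.11) and the inhibitory receptor gene Pirb (-2.19). Ptprc, which encodes CD45, was low at 0.210, 0.183 and 0.370 CPM and had no count in the 3 Dox_Entinostat libraries, at least 11.4-fold lower against a floor of 3 counts over the group. The groups did not overlap in 17 of the 19, against 2062 of all 2266 genes that fell. The first NoDox_Entinostat library was the lowest of its group for 16 of them, and leaving out any library of the 2 groups gave 16 to 20 falls.

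Some of these genes carry in their promoters the letters GAGGAAGT, a preferred core of SPI1 and other ETS factors, and 3 are shown because the genes that hold them fell together. The sequences are RefSeq's for GRCm38.p6, on the gene's strand, with the match in capitals: Vav1, an exchange factor for RAC (chr17:57279078-57279099, plus strand), Inpp5d (chr1:87620281-87620310, plus strand) and Pirb (chr7:3720484-3720513, minus strand).
Vav1: cagtcacagaaGAGGAAGTggt
Inpp5d: gtttctataatGAGGAAGTtctgtgcagct
Pirb: gtcacaccattGAGGAAGTcagagcatggt
Vav1 was measured at 32.7, 67.7 and 70.8 CPM in NoDox_Entinostat and 19.0, 22.7 and 20.6 CPM in Dox_Entinostat (-1.46 ± 0.28). Inpp5d went from 51.3, 116 and 116 CPM to 40.4, 48.7 and 41.9 CPM, and Pirb from 6.26, 9.23 and 8.45 CPM to 0.649, 2.75 and 1.83 CPM. In each of the 3 genes the groups did not overlap. GAGGAAGT was found on either strand in 3.2% of all 32851 promoter windows, which run from 250 bases before to 50 after a start, and it also lies in that of Gstp3, which rose (2.68). A comparison of motifs between genes that rose and fell was void, since only 61.5% of the former and 76.9% of the latter had a window, and 80% was needed. A match is a description of the letters and not a site of binding.

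The leukocyte actin and integrin genes fell together as well, 16 of 18 tested, where 15.1% of all genes fell, with a median of -2.32. In DMSO 14 fell, where 5.53% of all genes did, with a median of -3.24. Capg, which caps actin filaments, was measured at 108, 127 and 123 CPM in NoDox_Entinostat and 23.8, 25.6 and 29.4 CPM in Dox_Entinostat (-2.18 ± 0.15). Anxa2, an annexin at the inner face of the membrane, went from 44.5, 52.1 and 52.8 CPM to 7.32, 7.71 and 6.38 CPM (-2.80 ± 0.20). In both genes the groups were far apart, and the first library was close to the others of its group. The integrin genes Itgb2 (-2.54) and Itgal (-3.72), which encode the subunits of LFA-1, the actin-bundling Lcp1 (-2.61), the ARP2/3 subunit gene Arpc1b (-2.15), Coro1a (-2.16), the intermediate filament gene Vim (-3.48) and the kindlin gene Fermt3 (-1.58) fell in turn. Leaving out any library of the 2 groups gave 14 to 16 falls, and removing the length trend gave 17.

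**Figure D1:**
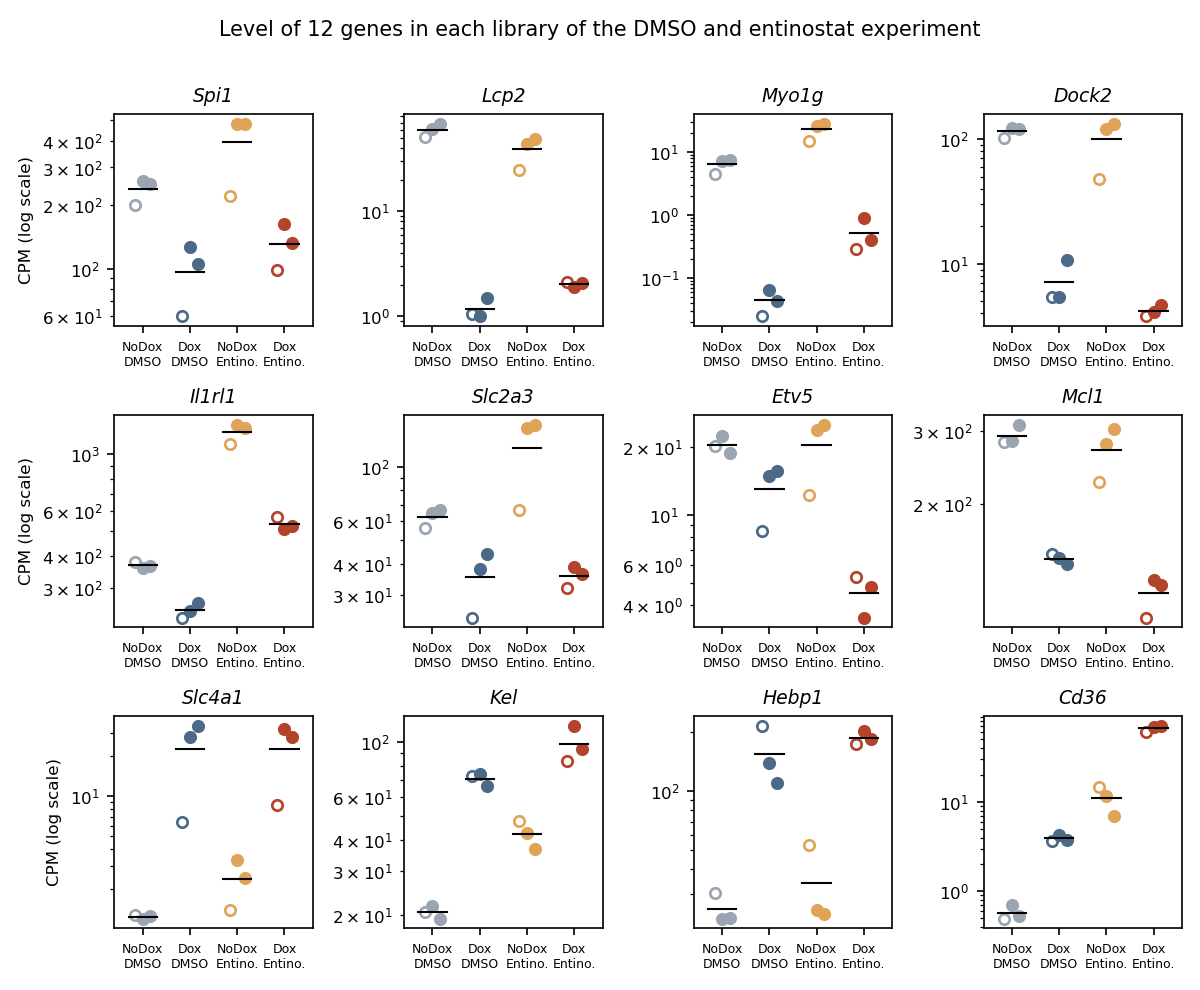
Level of 12 genes in each of the 12 libraries of the experiment, in CPM on a log axis, by group. Each circle is a library, open for the first library of its group, and each bar is the group mean. In entinostat the group means of Lcp2, Myo1g and Dock2 were apart by more than 10-fold, and for the 8 genes that fell the first NoDox_Entinostat library lay nearest to the libraries with doxycycline.

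Receptors and granule genes of myeloid cells made up a smaller set. Of 14 tested cytokine, Fc and Toll receptor genes, 6 fell, where 15.1% of all genes did, with a median of -1.45. Without the first NoDox_Entinostat library 10 fell, where 4431 of 15517 genes tested did. Il1rl1, the receptor for interleukin 33, was measured at 1098, 1298 and 1259 CPM in NoDox_Entinostat and 567, 510 and 524 CPM in Dox_Entinostat, a change of -1.19 ± 0.17 (adjusted p = 0.000755). Fcgr2b went from 7.48, 7.91 and 7.71 CPM to 0.336, 0.296 and 0.352 CPM, and Fcgr1, the high-affinity receptor for IgG, from 5.29, 5.39 and 6.43 CPM to 0.336, 0.500 and 0.374 CPM (-3.81 ± 0.40). In all 3 of these genes the 2 groups were apart and the first library was close to the others. Il6ra (-3.54), Tlr2 (-2.23) and Fcgr3 (-2.33) also fell. Of the phagocyte NADPH oxidase, which makes superoxide, 2 of 3 tested subunit genes fell, among them Cyba (-1.74 ± 0.37).

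Of 8 tested mast cell and basophil genes 4 fell, where 15.1% of all genes did. These were the granzyme gene Gzmb (-3.75), the histidine decarboxylase gene Hdc (-1.72), the carboxypeptidase gene Cpa3 (-2.05) and the receptor gene Cd200r3 (-1.56). The summed level of the 9 genes of this list in the file overlapped between the groups. It was 628, 325 and 351 CPM without doxycycline and 421, 371 and 392 CPM with it. The calls of Cpa3 and Cd200r3 were lost without the second Dox_Entinostat library (adjusted p = 0.0562 and 0.0537) and without the third (0.0679 and 0.0886), and that of Cd200r3 also without the first Dox_Entinostat library (0.0767), the second NoDox_Entinostat library (0.0699) or the third (0.071). Markers of other blood cells were low, except those of megakaryocytes and platelets. The summed level of 8 macrophage markers was 5.44 to 11.4 CPM without doxycycline and 2.24 to 3.57 CPM with it, of which the 1 tested, Cd68, fell (-1.61 ± 0.29), and that of 7 neutrophil granule markers was 2.83 to 3.91 and 1.19 to 2.0 CPM, with 1 fall (Prtn3) among 2 tested, lost without any of the first or the third Dox_Entinostat and the second or the third NoDox_Entinostat libraries (adjusted p = 0.0735 to 0.091). The sum of 11 megakaryocyte and platelet markers was 154 to 206 CPM and then 91.5 to 169 CPM, with 1 rise (Vwf) and 2 falls (Gp5 and Ppbp) among 10 tested. Neither fall was called without the second or the third NoDox_Entinostat library or without the second Dox_Entinostat library. The sums were 2.30 to 2.34 and 0.940 to 1.48 CPM for 8 B cell markers, 8.21 to 12.4 and 9.75 to 11.8 CPM for 8 T and NK cell markers, and 3.95 to 5.14 and 3.52 to 5.68 CPM for 9 stromal and endothelial markers. None of the markers in the file was at 0 in all 12 libraries, and their part in the falls of myeloid genes was not tested. In bulk RNA, fewer cells of a type and less RNA per cell cannot be told apart.

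Among transcription factors of the blood, Irf5, an interferon regulatory factor, fell from 11.3, 21.1 and 20.8 CPM to 2.98, 5.0 and 4.91 CPM (-2.05 ± 0.34), and of 8 tested myeloid factors Nfkb1 (-1.10) and Junb (-0.92) fell with it. Of these 3 falls 1 was called without the third NoDox_Entinostat library and 1 without the second Dox_Entinostat library. Among 13 regulator genes of stem and progenitor cells 7 fell, where 15.1% of all genes did, with a median of -0.74. These were Fli1 (-1.26), the homeobox genes Hhex (-1.11) and Meis1 (-0.94), Myb (-0.99), Runx1 (-0.93), Myc (-0.83) and Ikzf2 (-0.74). Myb, which holds progenitors in cycle, stood at 84.9, 121 and 124 CPM and then at 69.1, 47.8 and 49.4 CPM. Myc stood at 46.9, 84.9 and 81.6 CPM and then at 39.5, 40.4 and 40.3 CPM (adjusted p = 0.036). Its groups did not overlap, with the first untreated library close to the treated ones. The call of Myc was lost in 6 alternatives that leave out 1 library, with adjusted p from 0.0517 without the third NoDox_DMSO library to 0.147 without the second NoDox_Entinostat library. In DMSO Myc was level, at -0.01, and the difference between the arms was not called (adjusted p = 0.314). Of the 7 falls, 2 remained without the second or the third NoDox_Entinostat library and 3 without the second or the third Dox_Entinostat library. There were 10 without the first NoDox_Entinostat library, where 4431 of all 15517 genes tested fell.

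Of 17 tested members of SPI1's own ETS family 12 fell, where 15.1% of all genes did, with a median of -0.90. In DMSO 3 fell, where 5.53% of all genes did, with a median of -0.32. Etv5, a target and effector of ERK signalling, stood at 12.2, 23.7 and 24.9 CPM and then at 5.30, 3.52 and 4.80 CPM, a change of -2.16 ± 0.30 (adjusted p = 0.000711). Etv4 (-2.17), Etv6 (-1.38), Ets1 (-1.60) and Elf1 (-0.90) also fell. The ETS genes are long, with a median transcript of 4433 bases against 2817 over all genes, and for all 12 the first NoDox_Entinostat library was the lowest of its group. The groups did not overlap in 9 of the 12, against 2062 of all 2266 genes that fell and 37.6% of all genes tested. With the trend over length and GC content removed 12 fell, with a median of -0.75. There were 3 falls without the second or the third NoDox_Entinostat library, 4 without the second or the third Dox_Entinostat library, and 6 without the first Dox_Entinostat library. Feedback inhibitors of ERK, commonly induced together with Etv4 and Etv5, had 5 falls among 9 tested: Dusp6 (-1.12), Spred1 (-0.88), Spry4 (-1.42), Dusp4 (-2.03) and Spred2 (-0.98). In DMSO 1 of the 9 fell and 1 rose, while the block gave 2 falls and 1 rise. Without the second or the third NoDox_Entinostat library 2 of the ERK genes fell, and without the second or the third Dox_Entinostat library 3. The difference between the arms was called by edgeR for 0 of the 17 ETS and 0 of the 9 ERK feedback genes (6 and 4 at an unadjusted p under 0.05), and by DESeq2 for 1 of each. The share of all genes at that unadjusted level is not given here.

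Of 22 entries of glycolysis 18 fell, where 15.1% of all genes did, with a median of -1.06. In DMSO 6 fell, where 5.53% of all genes did, with a median of -0.57. Slc2a3, a glucose transporter, was measured at 66.5, 145 and 148 CPM in NoDox_Entinostat and 31.9, 38.9 and 36.5 CPM in Dox_Entinostat (-1.74 ± 0.29), and Slc2a1, another glucose transporter, changed by -1.59 ± 0.26. Aldoc, an aldolase, went from 24.4, 28.6 and 29.0 CPM to 6.94, 9.19 and 9.62 CPM (-1.67 ± 0.22, adjusted p = 0.000452), and Pdk1, a kinase of pyruvate dehydrogenase, from 55.3, 54.4 and 48.8 CPM to 30.3, 25.5 and 24.3 CPM (-0.98 ± 0.15). In these 3 genes the groups were apart, and in Aldoc and Pdk1 the first library was close to its group. Further down the pathway Gpi1 (-1.17), Tpi1 (-1.03), Pgk1 (-1.13), Eno1 (-1.10), Pkm (-1.31) and the lactate dehydrogenase gene Ldha (-0.80) fell, as did the lactate exporter gene Slc16a3 (-1.20). The file lists Aldoa under 2 identifiers, of which ENSMUSG00000030695 fell (-1.20) and ENSMUSG00000114515 stood at 0.68 (adjusted p = 0.085), and reads may be shared between them. Removing the length trend left the count of falls at 18, leaving out the first NoDox_Entinostat library gave 20 falls and 1 rise, and leaving out the second or the third gave 10. Leaving out the second Dox_Entinostat library gave 11 and the third 10.

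**Figure D2:**
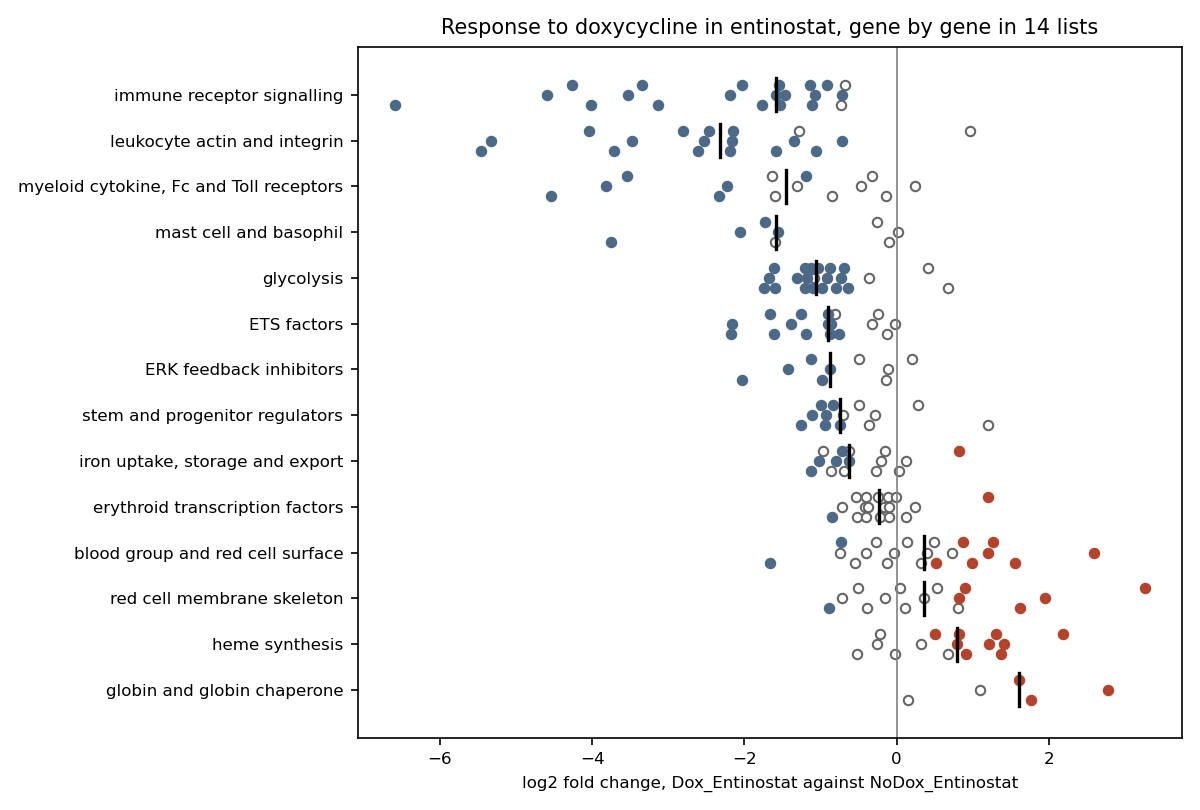
Log2 fold change in entinostat of every tested member of 14 gene lists. Each point is a gene, blue where it fell, red where it rose and open where it was not called, and the bar is the median of the list; the leftmost point, Ptprc, is a fitted value that depends on the prior count. Medians of the immune receptor signalling, leukocyte actin, ETS and glycolysis lists lie below 0, and those of the heme and globin lists above 0.

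Among genes with a regular name that averaged 5 CPM or more in a group and had no overlap, the largest rises were at the locus of a pair of red cell microRNAs. Mir144 and Mir451a lie side by side, at chr11:78073005-78073070 and chr11:78073170-78073241 on the plus strand, and their shared precursor is made in maturing erythroid cells. The mature forms are printed because these genes rose most at that level, from RefSeq for GRCm38.p6, with the seed, bases 2 to 8, in capitals.
mmu-miR-144-5p: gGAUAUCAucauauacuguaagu
mmu-miR-144-3p: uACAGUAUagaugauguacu
mmu-miR-451a: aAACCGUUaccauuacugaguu
No seed is shared among the 3. Mir144 had 3, 5 and 5 counts without doxycycline and 220, 965 and 581 with it, or 0.0630, 0.0914 and 0.0926 CPM against 4.92, 21.9 and 12.8 CPM. Mir451a had 8, 3 and 2 counts and then 140, 574 and 371. In both genes each treated library was far above each untreated one, and the first Dox_Entinostat library was the lowest of its group. The log2 fold changes were 7.27 ± 0.58 (adjusted p = 1.62e-05) and 6.55 ± 0.61 (adjusted p = 4.63e-05). In DMSO Mir144 had 1, 0 and 1 counts without doxycycline and 65, 85 and 86 with it. The counts are reads of polyadenylated RNA over the hairpin genes, so the mature microRNAs were not measured, and Mir451b, on the opposite strand of the same span, cannot be told apart in an unstranded library.

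Hemoglobin and its heme followed. Hba-a1, an alpha globin gene (chr11:32283511-32284465, plus strand), was measured at 28.0, 27.5 and 41.2 CPM in NoDox_Entinostat and 118, 168 and 377 CPM in Dox_Entinostat, a rise of 2.78 ± 0.47. The beta globin genes Hbb-bs, at 779, 516 and 693 CPM and then 881, 2557 and 2642 CPM (1.61 ± 0.41), and Hbb-bt, at 603, 399 and 525 CPM and then 875, 2310 and 2023 CPM (1.77 ± 0.36), rose with the first treated library nearest to the untreated ones. Near-identical globin copies share reads, so the value of any 1 copy is uncertain. These were the 3 rises among 5 globin and chaperone genes tested, where 8.96% of all genes rose. The median transcript of the 5 is 633 bases. With the trend over length and GC content removed 1 remained, Hba-a1. Hbb-bs then stood at 0.65 (adjusted p = 0.285) and Hbb-bt at 0.91 (0.0836). The call of Hbb-bs was also lost without the second (adjusted p = 0.0844) or the third (0.0708) NoDox_Entinostat library and without the second (0.0704) or the third (0.0773) Dox_Entinostat library.

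Of 15 heme synthesis genes 9 rose, where 8.96% of all genes did, with a median of 0.80, and in DMSO 7 rose, where 3.77% of all genes did, with a median of 0.76. The first step showed it in Alas2, the erythroid aminolevulinate synthase, at 19.0, 24.0 and 26.3 CPM and then 39.9, 60.7 and 83.9 CPM (1.41 ± 0.32, adjusted p = 0.0109). Uros, the fourth enzyme of the pathway, showed the largest rise of the list, from 61.1, 29.7 and 29.3 CPM to 187, 169 and 192 CPM (2.19 ± 0.30, adjusted p = 0.000691). In both genes the groups did not overlap. Alad (0.80), Urod (0.82), Ppox (0.92), the mitochondrial iron importer gene Slc25a37 (1.31), the glycine carrier gene Slc25a38 (0.50) and Tmem14c (1.38), which moves a heme precursor, also rose, while Fech, the last enzyme, was not called (0.33, adjusted p = 0.156). Hebp1, a heme-binding protein gene, stood at 53.4, 24.9 and 23.8 CPM and then at 172, 202 and 183 CPM (2.45 ± 0.33). Removing the length trend gave 10 heme rises and 1 fall, and the lowest count was 5, without the third Dox_Entinostat library, against 6 without the second or the third NoDox_Entinostat library. Each of the other 3 libraries of the 2 groups, left out, gave 8 to 10.

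The red cell surface and its skeleton changed in part. Cd36, a fatty acid and thrombospondin receptor of young erythroid cells, went from 14.8, 11.5 and 6.91 CPM to 61.1, 68.5 and 70.7 CPM (2.59 ± 0.24), and Kel, the Kell antigen, from 47.7, 42.9 and 36.7 CPM to 83.5, 116 and 93.7 CPM (1.20 ± 0.16). Both had treated libraries above every untreated one. Of 20 blood group and surface genes 7 rose and 2 fell, where 8.96% and 15.1% of all genes did. The falls were those of Cd44 (-1.66 ± 0.27), the hyaluronate receptor of immature cells, and the potassium channel gene Kcnn4 (-0.73). Without the first NoDox_Entinostat library 4 fell, and without any of the other 5 libraries of the 2 groups 1 fell. Slc4a1, which encodes band 3, the anion exchanger (chr11:102348824-102366203, minus strand), went from 1.39, 3.33 and 2.41 CPM to 8.62, 32.0 and 27.8 CPM, a rise of 3.26 ± 0.59 (adjusted p = 0.00343). Epb42, which ties band 3 to the skeleton, stood at 2.88, 6.03 and 4.80 CPM and then at 10.6, 21.4 and 21.1 CPM (1.95 ± 0.43). In these genes of the skeleton both first libraries were the lowest of their groups. Of 15 skeleton genes 5 rose and 1 fell, where 8.96% and 15.1% of all genes did, with a median of 0.36. In DMSO 9 rose, where 3.77% of all genes did, with a median of 1.16. With the length trend removed 7 rose. There were 4 rises and 3 falls without the first NoDox_Entinostat library, and 3 rises without the third Dox_Entinostat library.

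Promoters of several genes that rose, and of several that fell, hold the letters AGATAA, which GATA factors prefer, or CCACACCC, which KLF1 prefers. Picked from red cell genes of the preceding lists that rose, 4 matches are shown. They lie at chr7:103828121-103828150 and chr7:103828003-103828032 (Hbb-bs, minus strand), chr6:41704364-41704393 (Kel, minus strand) and chrX:150547319-150547348 (Alas2, plus strand, where the motif reads on the other strand as TTATCT).
Hbb-bs, first match: tgttctctgcacAGATAAggacaaacatta
Hbb-bs, next match: attccgtagagCCACACCCtggtaagggcc
Kel: cctgagaaactaAGATAAaagaggaggtga
Alas2: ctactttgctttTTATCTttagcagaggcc
AGATAA was found on either strand in 11.2% of all windows and CCACACCC in 3.56%. AGATAA also lies in promoter windows of genes that fell, among them Lcp2, Celf2, Cd44 and Il1rl1. CCACACCC lies in those of Aldoa, Dhcr7, Kcnn4, Pdk1 and Pirb, which fell as well.

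Most erythroid transcription factor genes were not called, where 8.96% of all genes rose and 15.1% fell. Gata1 was measured at 127, 170 and 161 CPM in NoDox_Entinostat and 131, 123 and 135 CPM in Dox_Entinostat, and the groups overlapped (-0.24 ± 0.18, adjusted p = 0.325). Klf1 stood at 33.3, 43.3 and 55.6 CPM and then at 33.3, 30.6 and 38.3 CPM (-0.37 ± 0.23, adjusted p = 0.221). Sox6, a repressor of embryonic globin, was the 1 rise among 18 tested factors, from 18.0, 26.6 and 27.6 CPM to 49.2, 57.2 and 59.0 CPM (1.20 ± 0.34, adjusted p = 0.0274), and Ikzf1 the 1 fall (-0.85, adjusted p = 0.0332). Without the first NoDox_Entinostat library 6 of the list fell, where 4431 of all 15517 genes tested did. Without the second or the third library of either group neither Sox6 nor Ikzf1 was called. Of 15 tested iron genes 5 fell, where 15.1% of all genes did, among them Hfe (-1.02), the heme exporter gene Flvcr1 (-0.79) and the ferritin receptor gene Ncoa4 (-1.12), and 1 rose, the ferritin gene Fth1 (0.82). The transferrin receptor gene Tfrc was not called, at 0.12 (adjusted p = 0.751). Without the first NoDox_Entinostat library 9 iron genes fell, while 2 fell without the second library of either group, 1 without the third library of either, and 3 without the first Dox_Entinostat library. The call of Fth1 was lost without any of these last 5 libraries (adjusted p = 0.0563 to 0.163).

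Beyond the erythroid and microRNA genes, the other largest rises at that level were those of the protease gene Ctsf (3.70 ± 0.40), the ring finger gene Rnf212 (3.18 ± 0.27), Apol11a (2.89), the glutathione transferase gene Gstp3 (2.68), Adamts13 (2.50), whose product cuts von Willebrand factor, and Il1b (2.48). Il1b, the cytokine interleukin 1 beta, stood at 18.1, 6.58 and 7.28 CPM and then at 46.5, 72.8 and 58.4 CPM, against 1.08, 0.977 and 0.873 CPM and then 18.6, 9.01 and 8.90 CPM in DMSO. Gstp3 shares reads with its near-identical relatives.

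Survival genes of the BCL2 family moved in both senses. Mcl1, which protects cells from apoptosis, was measured at 227, 279 and 303 CPM in NoDox_Entinostat and 107, 132 and 128 CPM in Dox_Entinostat, a change of -1.14 ± 0.16 (adjusted p = 0.000901). Bcl2l1, which encodes the protective BCL-XL, changed by -0.93 ± 0.21, and of the death-promoting members Bak1 (-1.07) and Bmf (-2.05) fell and Bik rose (1.01). Bcl2a1a fell (-1.36) but belongs to a family of near-identical copies, and its value is uncertain. Over all genes 15.1% fell and 8.96% rose, and of the 14 of this list 5 fell and 1 rose. These counts moved with single libraries: without the second NoDox_Entinostat library 1 of the list fell, without the third 2, without the second Dox_Entinostat library 3 and without the third 2, and none rose without any of these 4 libraries. Removing the length trend gave 4 rises and 6 falls. Bcl2l11, which encodes BIM, stood at 24.8, 40.0 and 37.4 CPM and then at 40.4, 57.7 and 51.2 CPM, groups apart but not called (0.55 ± 0.21, adjusted p = 0.0682). In DMSO it rose by 1.70, from 9.64, 9.04 and 8.27 CPM to 23.7, 31.6 and 32.6 CPM, and the difference between the arms was not called (adjusted p = 0.188). With the length trend removed the change in entinostat was 0.81 (adjusted p = 0.00132).

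The calls among the inhibitor's targets and partners stand beside 8.96% of all genes that rose and 15.1% that fell. Hdac1 stood at 372, 349 and 343 CPM and then at 367, 304 and 344 CPM (-0.07 ± 0.16, adjusted p = 0.754), Hdac2 changed by -0.25 ± 0.17 and Hdac3 by 0.02 ± 0.13, none of them called. Of 21 deacetylase and corepressor genes 3 fell, with a median of -0.44 against -0.08 over all genes. These were Hdac8 (-1.13), Hdac7 (-0.79) and Sap30 (-0.55, adjusted p = 0.0499). With the length trend removed Hdac7 stood at -0.31 (adjusted p = 0.392). With the first NoDox_Entinostat library left out 12 fell and 1 rose, without the third 1 fell, and none was called without the second NoDox_Entinostat or the third Dox_Entinostat library. In the fit without the first NoDox_Entinostat library, 4431 of all 15517 genes tested fell. Of 11 PRC2 genes 1 fell, Jarid2 (-1.08, adjusted p = 0.0436), and its call was lost in 11 alternatives. Ezh2 (-0.21), Suz12 (-0.12) and Eed (0.53, adjusted p = 0.0902) were not called. Once the length trend was removed 2 of the PRC2 list rose, Eed among them (0.40, adjusted p = 0.033), and 2 fell. Without the first NoDox_Entinostat library 3 of the list fell and 2 rose, Eed again among them (0.79, adjusted p = 0.00606). Of 14 HOX and developmental PRC2 targets 0 were called by edgeR, 0 by DESeq2 and 3 at an unadjusted p under 0.05, a level for which the share of all genes is not given here.

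The calls of the cell cycle and stress lists moved with single libraries, and their counts stand beside 8.96% of all genes that rose and 15.1% that fell. Of 27 S phase genes 4 rose, among them Pcna (0.92), and 1 fell, Mcm2 (-1.29). Of 22 genes of G2 and mitosis 2 rose, Birc5 (0.72) and Mad2l1 (1.20), and Kif11 fell (-0.78). Without the first NoDox_Entinostat library 3152 of all 15517 genes tested rose and 4431 fell. In that fit 8 of the S phase genes rose and 9 fell. None was called without the second or the third NoDox_Entinostat or the third Dox_Entinostat library. For the mitosis genes the fit without the first NoDox_Entinostat library gave 4 rises and 8 falls, and those other fits 0. The cell cycle inhibitors Cdkn2a (-0.80) and Rbl2 (-0.88) fell and Cdkn2c rose (0.55) among 14, while Cdkn1a, which encodes p21, was not called (-0.63, adjusted p = 0.189) except without the first NoDox_Entinostat library among the 6 left out in turn (-0.88, adjusted p = 0.0402). The call of Cdkn2c was lost without the second or the third library of either group (adjusted p = 0.0974 to 0.124), and that of Cdkn2a without the third NoDox_Entinostat library (0.0874) and the second (0.0622) or the third (0.0671) Dox_Entinostat library. Of 27 interferon-stimulated genes 5 fell, among them Oas2 (-1.73), and 2 rose, Isg20 (0.69) and Ifi27 (0.74), both lost with the length trend removed. Of 13 immediate early genes 4 fell (Junb, Ier5, Fosl2 and Jun), of 18 cholesterol synthesis genes 2 (Dhcr7 and Lss), and of 19 ATF4 and stress genes 4, including the amino acid transporter genes Slc7a5 (-1.21) and Slc3a2 (-0.94), with 1 rise, Nupr1 (0.74). Without the second or the third library of either group, the interferon-stimulated and cholesterol genes had 0 falls called, the stress genes 1, and the immediate early genes at most 2, and Nupr1 was not called (adjusted p = 0.0508 to 0.107). Without the first NoDox_Entinostat library there were 11, 8 and 8 falls in the first 3 of these lists and 4 immediate early ones, of which 1 was called without the first Dox_Entinostat library.

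The fold changes varied with transcript length, shown here over 5 equal classes of genes. In the class of the shortest transcripts, 55 to 1302 bases, the median log2 fold change was 0.56, and 17.4% rose and 3.92% fell. In the class of the longest, from 4677 bases, it was -0.38, with 4.79% up and 19.7% down. The classes between had medians of 0.02, -0.13 and -0.26. In DMSO the medians of the same classes were 0.06, -0.01, 0.02, 0.06 and 0.14, and in the separate experiment none was farther from 0 than 0.06. The DMSO medians combine Dox_DMSO libraries of opposite length profiles. Against the mean of all 12 libraries, the longest class minus the shortest was 0.09, 0.48 and 0.33 in NoDox_DMSO and -0.47, 0.81 and 0.83 in Dox_DMSO. The genes that rose had a median transcript of 1795 bases, 63.2% of them protein coding and 15.6% long noncoding, and those that fell one of 3462.5 bases, 94.4% and 2.91%, against 2817 bases, 78.2% and 10.1% over all genes. Against the mean of all 12 libraries, the longest class stood lower than the shortest by 0.86, 0.87 and 0.90 in the Dox_Entinostat libraries and by 0.75 in the first NoDox_Entinostat library, and higher by 0.52 and 0.49 in the second and the third. Leaving out that first library widened the span, from 0.84 in the shortest class to -0.58 in the longest. Removing a smooth trend over length and GC content from each library gave medians of -0.24 and -0.11 and 1630 rises and 2944 falls, of which 928 and 2109 were among the genes called before.

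**Figure D3:**
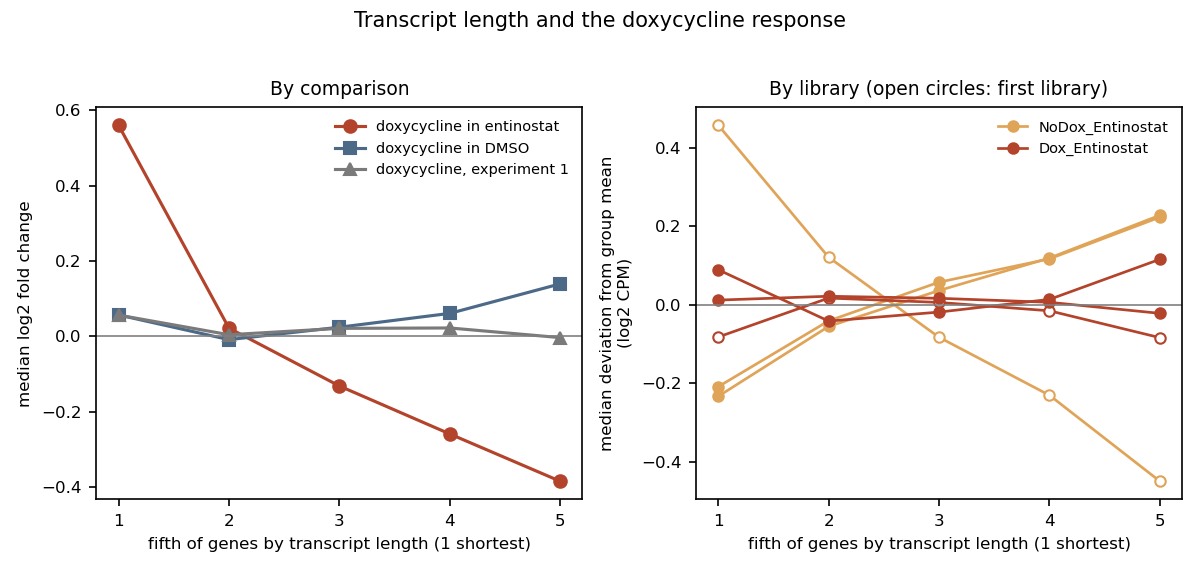
Left, median log2 fold change with doxycycline in 5 classes of genes by transcript length, for entinostat, DMSO and the separate experiment (experiment 1). Right, median deviation of each entinostat library from its group mean in log2 CPM in the same classes, with open circles for the first library of a group. The entinostat line descends from 0.56 to -0.38 while the others stay near 0, and the first NoDox_Entinostat library departs from the other 2 of its group. The DMSO line combines Dox_DMSO libraries of opposite length profiles.

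Set beside DMSO, whose libraries are all different ones, most changes called in entinostat had the same sign. Of the genes that rose in entinostat 20% also rose in DMSO, where 3.77% of all genes did, and 90.9% had the same sign there. Of those that fell 27.7% also fell in DMSO, where 5.53% of all genes did, and 86.5% had the same sign. The share of the same sign over all genes is not given here. Seen from DMSO, 47.5% of its rises and 75.3% of its falls were called the same way in entinostat. Over all genes 8.96% rose and 15.1% fell in entinostat. Across entinostat, DMSO and the separate experiment, 184 genes rose and 483 fell in every one, with median transcripts of 2808 and 3113 bases. Called in entinostat alone were 1013 rises, with a median transcript of 1500 bases, and 1355 falls, with one of 3511 bases, and for 0 of them was the difference between the arms called by edgeR. At an unadjusted p under 0.05 the difference passed for 765 of these 2368 genes, and with DESeq2 26 were called. The share of all genes at that unadjusted level is not given here. These genes were chosen by calls on the same libraries that enter the difference, so no conclusion is drawn from the 765.

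The test of that difference called 41 genes (0.272%), 25 with a positive and 16 with a negative value, and all 41 had a smaller fold change in entinostat than in DMSO. The 25 positive ones all fell in DMSO, and 17 of them also fell in entinostat. The 16 negative ones all rose in DMSO, and 6 of them also rose in entinostat. Lgals1, which encodes galectin 1 (chr15:78926725-78930465, plus strand), stood at 75.7, 77.9 and 77.4 CPM in DMSO and at 5.16, 2.16 and 2.58 CPM with doxycycline. In entinostat it stood at 318, 245 and 233 CPM and at 91.4, 173 and 118 CPM, so that doxycycline left it above its level in untreated DMSO cells. The log2 fold change was -1.06 in entinostat and -4.55 in DMSO, a difference of 3.49 (adjusted p = 0.00493). The call of Lgals1 in entinostat itself was lost without any of 4 of the 6 libraries, at adjusted p from 0.0591 to 0.0937.

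Tespa1, an adaptor of thymocyte receptor signalling (chr10:130322870-130364111, plus strand), showed the widest positive difference of those named, 4.14. It stood at 53.8, 37.7 and 36 CPM and then at 11.9, 16.4 and 12.2 CPM in entinostat, and at 6.38, 7.91 and 7.53 CPM and then 0.246, 0.0432 and 0.108 CPM in DMSO. Again each entinostat library with doxycycline was above every DMSO library without it. Dubr, a long noncoding RNA, was level in entinostat, at 78.8, 58.4 and 57.2 CPM and then 59.1, 79.5 and 66.1 CPM (0.07 ± 0.19, and -0.0607 with scaling by library size alone), while in DMSO it went from 11.3, 10.9 and 12.3 CPM to 3.78, 2.79 and 2.35 CPM. The solute carrier gene Slc45a3 (difference 2.66), the membrane protein gene Smagp (2.20) and Acap1 (1.83), which acts on the GTPase ARF6, fell in both arms, less in entinostat. In entinostat the calls of Acap1 and Smagp were lost without the third NoDox_Entinostat library (adjusted p = 0.0612 and 0.0829) and the third Dox_Entinostat library (0.0621 and 0.0832), and that of Acap1 without the second NoDox_Entinostat library (0.0517).

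Among the rises, Btnl10, a butyrophilin-like gene (chr11:58917908-58927158, plus strand), went from 4.26, 6.34 and 5.80 CPM to 14.6, 17.2 and 16.7 CPM in entinostat (1.56 ± 0.32) and from 1.24, 1.91 and 1.35 CPM to 22, 61.9 and 57.3 CPM in DMSO, a difference of -3.40. Plpp1, a lipid phosphatase gene, stood at 31.1, 24.3 and 23.0 CPM and then at 50.5, 35.0 and 39.1 CPM in entinostat, and at 2.16, 2.48 and 1.35 CPM and then 19.7, 19.8 and 17.1 CPM in DMSO (difference -2.57). For Btnl10 the treated entinostat libraries stayed below the treated DMSO ones, and for Plpp1 they were above them. The rise of Plpp1 in entinostat itself (0.67 ± 0.22, adjusted p = 0.0413) was not called without any 1 of 5 of the 6 entinostat libraries (adjusted p = 0.0593 to 0.172), the first NoDox_Entinostat library being the exception, or with scaling by library size alone. Fads3 (difference -2.20), Osr2 (-2.65) and Dmwd (-1.91) rose in DMSO and were not called in entinostat. Fads3 (0.76, adjusted p = 0.000844) and Osr2 (0.63, adjusted p = 0.0246) rose in entinostat as well once the length trend was removed. Fads3 also rose there without the first Dox_DMSO library (adjusted p = 0.0211), and Dmwd fell without the first NoDox_Entinostat library (-0.52, adjusted p = 0.0352). Rhd, the Rh antigen of the surface list, was level in entinostat, at 46.5, 55.4 and 51.6 CPM and then 75.9, 49.0 and 67.6 CPM, and rose in DMSO from 43.0, 50.1 and 43.9 CPM to 131, 204 and 179 CPM (difference -1.58, adjusted p = 0.039). The number of differences called is itself bound to a few libraries: 928 positive and 2133 negative without the first NoDox_Entinostat library, 1018 and 1619 without the first Dox_DMSO library, and 6 and 3 without the second Dox_Entinostat library. The first Dox_DMSO library resembled the first NoDox_Entinostat library in its length profile, its longest class standing 0.82 lower than its shortest relative to its group.

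**Figure D4:**
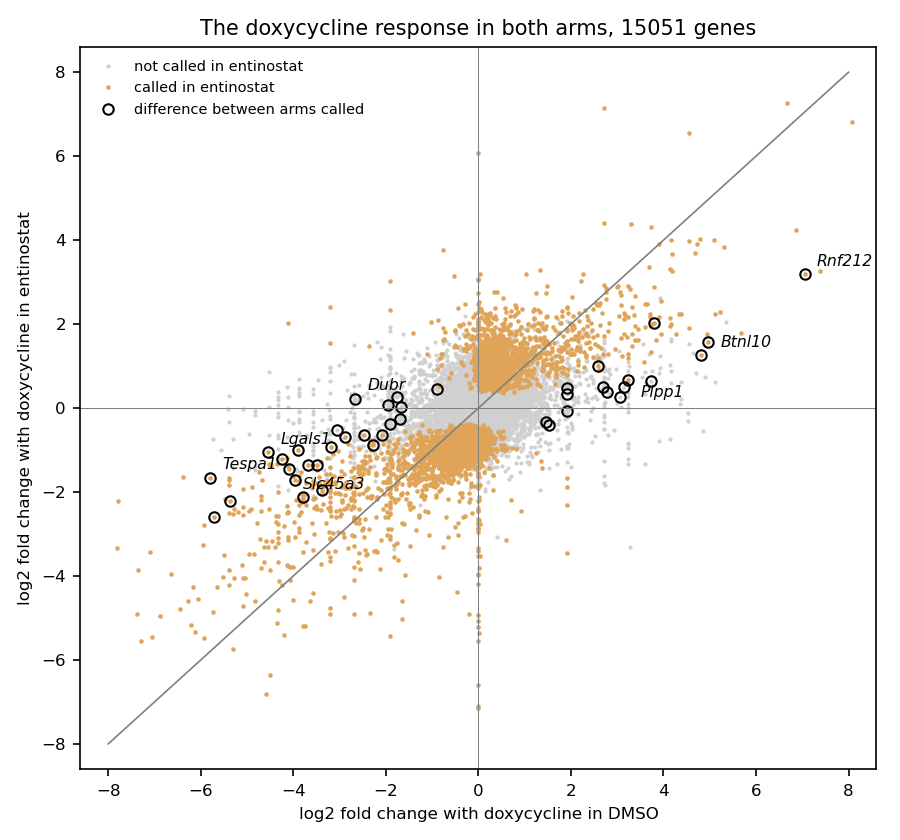
Log2 fold change with doxycycline in DMSO and in entinostat for the 15051 genes tested. Each dot is a gene, orange where it was called in entinostat and grey where not, black circles are the 41 genes whose difference between the arms was called, and the line marks equal values. All 41 lie on the side of the smaller change in entinostat.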

How the data were processed

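RNA was measured by sequencing polyadenylated RNA with a TruSeq kit that does not mark strand, per the labels' protocols, so reads of a gene and of its antisense partner are mixed. The values are raw counts per gene deposited by the authors. STAR, DESeq2, bcl2fastq 2.17.1.14 and the build mm10 are named, per the submitters' processing notes, while the counter and annotation are not given in the sources used here. The reads carried no molecular identifiers. GENCODE M21 held 26853 of the 26903 identifiers.

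Counts of 12 libraries were fitted together with edgeR 4.0.16 in R 4.3.3 (quasi-likelihood, group means, TMM, filterByExpr, two-sided, Benjamini-Hochberg over 15051 genes, threshold 0.05). The common biological coefficient of variation was 0.242. The separate experiment was fitted alone. The fit was tested on simulated data. Lists are described by counts and medians and were not tested. The libraries follow from their labels, but the comparison described and the lists were chosen with earlier results of these data known. Named genes were fixed regulators, the 12 largest rises and 12 largest falls with no overlap and a mean of at least 5 CPM, up to 4 called members of each list, and the 6 differences of smallest p in each direction; Aldoa's second identifier, Tfrc, Fech, Rhd and other list members were added after their values were seen. Alternatives were other scaling and filters, DESeq2 1.42.0, limma-voom (limma 3.58.1), the replicate block, the 2 groups alone, a trend over length and GC content removed (splines, 4 degrees of freedom), and libraries left out. Deviations of same-numbered libraries of the 2 entinostat groups correlated at under 0.1, and over all 4 groups 9 of 18 same-numbered pairs were over 0.1, so the numbers were not taken as pairs in the fit or in the difference between arms. The 3 pairs of the DMSO groups were over it (0.102 to 0.334), and a block for DMSO was added after the data were seen.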

Additional observations from a re-analysis of the deposited data

Results flagged for a closer look

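These values stand out because the effect of doxycycline in entinostat differed from that in DMSO by the test of the difference itself (edgeR, adjusted p under 0.05). On the log2 scale the difference, entinostat minus DMSO, was 4.14 for Tespa1, 2.20 for Smagp, 1.83 for Acap1, 3.49 for Lgals1, 2.66 for Slc45a3 and 2.03 for Dubr. It was -2.57 for Plpp1, -2.65 for Osr2, -2.20 for Fads3, -3.40 for Btnl10, -1.91 for Dmwd and -3.87 for Rnf212. In each of the 12 genes the change in DMSO was the larger, and levels without doxycycline were higher in every entinostat library than in any DMSO library for 11 of them, all but Slc45a3. The value of Rnf212 rests on 0, 1 and 2 counts in NoDox_DMSO. Its call was lost without the second NoDox_DMSO library (adjusted p = 0.0773), and the calls of Dubr, Btnl10, Dmwd and Rnf212 were lost without the second Dox_Entinostat library (adjusted p = 0.0525 to 0.0576).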

How the results depend on the processing

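Of 134 named genes, 66 kept direction and side of the threshold in all 23 alternatives, 53 lost a call and 12 gained one in at least 1, and 4 changed sign, none of them called in the reported fit. By library size alone Hdac3 stood at -0.13 and Dubr at -0.0607, with no filter at -0.0865 and -0.0178, and Dubr at -0.0151 with the trend removed and -0.0256 with trend and block. Leaving out each library in turn gave -0.0052 to 0.0416 for Hdac3, -0.136 to 0.00299 for Hdac1, -0.341 to 0.0356 for Suz12 and -0.04997 to 0.233 for Dubr. For these reversals the cause was not tested.

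Requiring at least 2-fold left 879 rises and 1142 falls, by construction. DESeq2 called 2080 rises. Leaving out each library in turn gave 228 to 3152 rises and 766 to 4431 falls in entinostat, and 6 to 1018 positive and 3 to 2133 negative differences. Leaving out the first NoDox_Entinostat and Dox_DMSO libraries together gave 4040 and 5529, and 3326 and 4646 differences. The differences numbered 67 and 139 with no filter, 122 and 113 with DESeq2, and 41 and 36 with the trend removed. The replicate block gave 2691 rises and 3424 falls, and 73 and 104 differences, and with the trend removed as well 2380 and 3797, and 120 and 154. Same-numbered libraries of the 2 entinostat groups correlated at 0.0645, 0.0792 and 0.0718 in their deviations, under the limit of 0.1 for pairing, though each of the 6 libraries correlated best with its own number, a hint from the data and not the design. Dox_DMSO and NoDox_Entinostat libraries correlated at 0.533 to 0.780 with their own number. With the block Bcl2l11 (adjusted p = 0.0165), Fads3 (0.0299), Osr2 (0.0416), Eed (0.0141) and Cdkn1a (0.0195) were called in entinostat. The cause of these moves was not tested.

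With 3 libraries a group, 1 of which stands apart, calls near the threshold rest on few libraries, and genes of few counts such as Ptprc are limited by depth.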
